A study of Mus musculus with 76 samples.

Results

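Mir144 and Mir451a are the precursors of a pair of erythroid microRNAs that are transcribed together. They were followed here as 2 of the 49585 gene rows of a stranded total RNA-seq count series of mouse fetal liver. The series holds 76 libraries from C57BL/6NJ embryos at embryonic day 14.5, and covers WT and KO genotypes of 2 mouse lines, DIS3 and EXOSC10. Each line and genotype has 4 libraries of total liver and 3 of each of 5 fractions sorted on CD71, the transferrin receptor, and Ter119, a marker of maturing erythroid cells, named S0 to S3 and S4+S5 in order of erythroid maturation. DIS3 and EXOSC10 are the catalytic 3′ to 5′ RNases of the nuclear RNA exosome. All animals share the strain and age, and the labels name neither the alleles, nor what drives the deletion, nor whether the libraries of a group come from separate embryos, so the spread between them may be technical. Near-identical libraries of 1 group, whose counts differed by little more than sampling noise, were summed, which left 52 samples (2 per genotype in each sorted fraction, 2 to 4 in total liver). The pair was chosen by its own count rows across line, genotype and population, with their high values in the DIS3 KO known, so its levels are given as a description with no test.

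In the mouse the pair lies on chromosome 11 in a single primary transcript that GATA1 switches on in erythroid cells. Drosha and Dgcr8 cut the hairpins out of that transcript. The Mir144 hairpin then takes the usual route through Xpo5 and Dicer1. The Mir451a hairpin is too short for Dicer and is cut by the slicer activity of Ago2 instead. In mice, loss of the locus makes red cells sensitive to oxidants, through the 14-3-3 zeta protein that Ywhaz encodes and the transcription factor FoxO3. The libraries are not small RNA libraries: the rows count reads over the hairpins, which come from the primary transcript and its processing products and do not measure mature microRNA.

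Both annotated hairpins are short. In GRCm38, Mir144 (ENSMUSG00000065401) spans chr11:78073005-78073070 on the plus strand, and Mir451a (ENSMUSG00000070065) spans chr11:78073170-78073241 on the same strand, with 99 bases between them. Each is a microRNA gene of 1 exon, with no coding sequence or UTR, and no gene other than Mir451b overlaps them. Mir451b (ENSMUSG00000104813) has the same coordinates as Mir451a on the minus strand. The hairpins are shown because their shapes set apart the Dicer and Ago2 routes, with the mature microRNAs in capitals (RefSeq, GRCm38.p6, 5′ to 3′).
Mir144 hairpin: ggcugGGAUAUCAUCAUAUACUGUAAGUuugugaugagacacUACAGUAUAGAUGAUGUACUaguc
Mir451a hairpin: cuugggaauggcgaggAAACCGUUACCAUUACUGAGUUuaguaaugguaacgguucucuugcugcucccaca
The predicted fold of Mir144 has 27 base pairs, a loop of 6 bases and a minimum free energy of -28.6 kcal/mol, with 1 mature microRNA on each arm. The predicted fold of Mir451a has 30 base pairs, a loop of 4 bases and a minimum free energy of -43.3 kcal/mol. Its mature microRNA covers positions 17 to 38 and runs from the 5′ arm into the loop. The mature sequences follow with the seed, bases 2 to 8, in capitals.
miR-144-5p: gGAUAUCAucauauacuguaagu
miR-144-3p: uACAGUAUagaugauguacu
miR-451a: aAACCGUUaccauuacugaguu
Each of these seeds occurs in 1 of the 1738 mature mouse microRNAs of the table, so the 3 microRNAs share no seed with each other or with another entry.

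Libraries held 4.66 M to 30.41 M counts (1 M is 1e6 counts, median 12.71 M), of which the rows Gm26917 and Gm42418 took 5.26% to 61.4%. In the DIS3 line Dis3 fell in S0 to S3 (log2 KO over WT -0.95 to -0.31), and did not pass the test in S4+S5 (-0.68, adjusted p = 0.134) or total liver (-0.25, adjusted p = 0.245). Without 1 WT sample the Dis3 call in S2 was lost (adjusted p = 0.165), and in S3 it was lost without replicate 2 of WT, without replicates 1 and 3 of KO and with DESeq2 (adjusted p at most 0.165). Exosc10 fell in all 6 comparisons of the EXOSC10 line (-1.90 to -0.44). Its call in S4+S5 was lost in 3 alternative analyses, among them those without either WT sample. The summed CPM (counts per 1e6 counts) of 11 erythroid markers matched the order of the sort, with 332 to 334 in DIS3 WT S0 and 54690 to 59180 in DIS3 WT S4+S5. Over the 76 libraries the Mir144 row summed to 13536 counts and the Mir451a row to 12524, and 69 and 60 libraries held at least 1.

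In WT liver the pair was close to absent in S0 and appeared with erythroid maturation. On a CPM scale common to all 52 samples, Mir144 in the DIS3 line averaged 0.0186 ± 0.026 in S0, 0.0939 ± 0.047 in S1 and 0.525 ± 0.27 in S2 (SD, n = 2 each). It averaged 5.85 ± 0.74 in S3 and 2.58 ± 0.33 in S4+S5 (SD, n = 2 each), so S3 held the highest level of the sorted fractions. No 2 neighbours in that order overlapped, although S0 and S1 rest on 1 and 3 counts in all. Mir451a was at 0 counts in DIS3 WT S0, which allows up to 0.0604 CPM on the scale of the S3 to S0 comparison, and its single count in S1 does not set S1 apart from S0. It averaged 0.258 ± 0.082 CPM in S2, 2.40 ± 0.75 in S3 and 3.78 ± 0.87 in S4+S5 (SD, n = 2 each). The S4+S5 samples, 3.17 and 4.40 CPM, lay above the S3 samples, 1.87 and 2.93, the reverse of the order for Mir144. That order rests on few counts, and the libraries summed into the S4+S5 sample of 3.17 CPM differed. Replicate 1 held 8 counts of Mir144 and 23 of Mir451a, and replicate 3 held 15 and 8 (library totals 6770235 and 5961402).

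The WT samples of the EXOSC10 line gave the same broad order, with less separation at its end. Mir144 averaged 0.0173 ± 0.025 CPM in S0, 0.130 ± 0.075 in S1, 0.445 ± 0.081 in S2, 3.46 ± 1.6 in S3 and 2.74 ± 0.49 in S4+S5 (SD, n = 2 each). Mir451a had 0 counts in S0 and averaged 0.0652 ± 0.092 CPM in S1, 0.303 ± 0.079 in S2, 2.48 ± 0.74 in S3 and 2.51 ± 0.28 in S4+S5 (SD, n = 2 each). The S3 and S4+S5 samples overlapped for both rows in this line. For Mir144 the WT ratio of S3 to S0 was 278 in the DIS3 line (95% counting interval 49.4 to 11050) and 156 in the EXOSC10 line (27.4 to 6195). For Mir451a it was at least 37.4-fold and at least 30.2-fold, set against a floor of 3 counts over the S0 group. In the same comparisons 80.5% and 77.3% of tested genes were called changed in either direction. Total WT liver, a mixture, held a mean of 6.08 ± 2.4 CPM of Mir144 (SD, n = 4) in the DIS3 line, and the EXOSC10 line held 2.95 ± 0.47 (SD, n = 3).

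**Figure D1:**
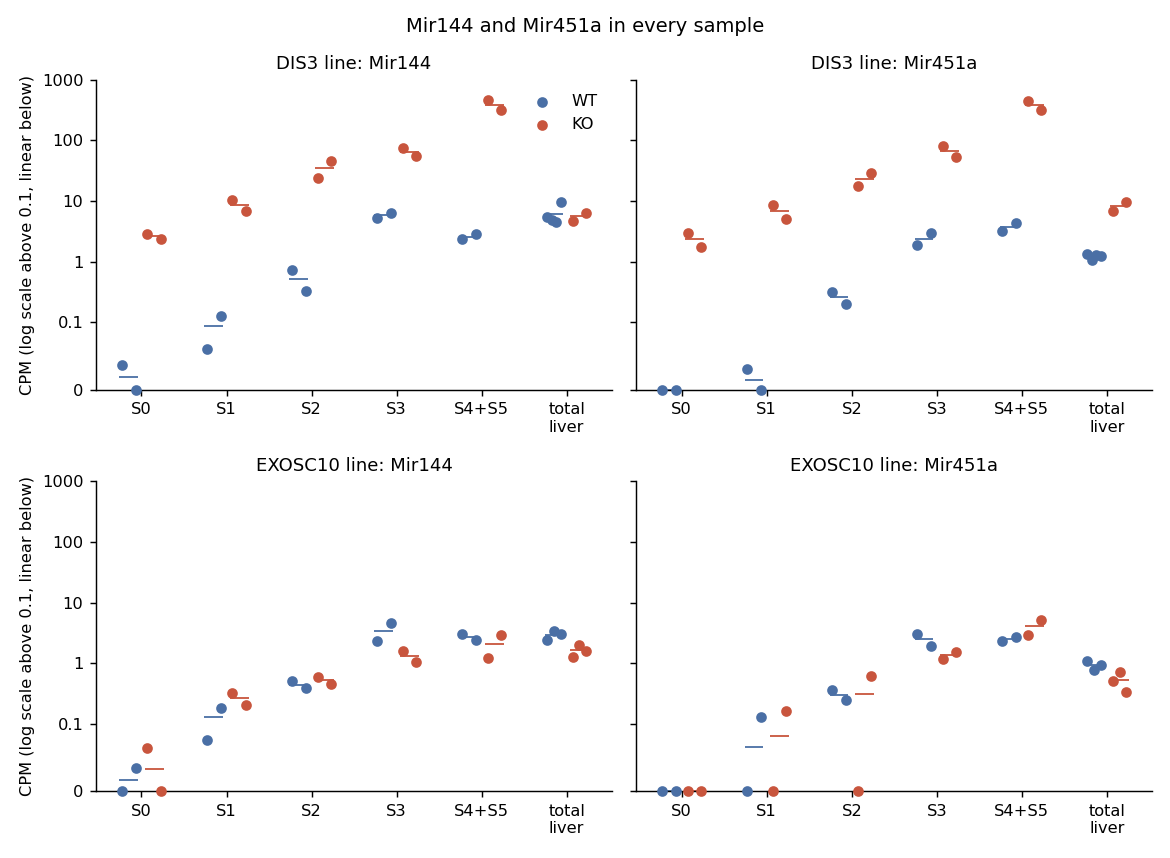
Levels of the Mir144 and Mir451a rows in every sample, as CPM on 1 scale common to the 52 samples (log axis above 0.1 CPM, linear below), by line, population and genotype. Points are samples and bars are group means. In the DIS3 line the KO means climb from 2.63 CPM of Mir144 in S0 to 389.8 in S4+S5, while WT means stay at or below 5.85 in the sorted fractions, and in the EXOSC10 line no group mean passes 4.12.

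Over the 20 WT sorted samples, the 5 genes most like the pair were Mavs, Snx22, Fn3k, Gm867 and Dok4. They were ranked among 12974 genes by Pearson's r of log2(CPM + 1) with the summed CPM of both rows on that scale. Their r ran from 0.984 to 0.988, a description, since the samples share populations and embryos' age. Fn3k, a kinase that removes sugar adducts from proteins, averaged 0.166 CPM in DIS3 WT S0, 287 in S3 and 185 in S4+S5. Mavs, an adaptor of antiviral signalling, averaged 19.5, 159 and 127 CPM in the same fractions. Both shared with Mir144 a WT maximum at S3 in the DIS3 line, while Gm867, a predicted gene, was higher in S4+S5 (91.7 CPM) than in S3 (82.8 CPM). In the EXOSC10 line Mavs was again highest in S3 (123 CPM, and 116 in S4+S5). There Fn3k was higher in S4+S5 (241 CPM) than in S3 (216 CPM), as were Snx22, Gm867 and Dok4.

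DIS3 KO samples held far more of both rows than the WT samples in every sorted fraction, S0 included. The values that follow are raw counts and CPM scaled within each comparison, with the summed sample of replicates 1 and 3 first and replicate 2 second. In S0 the Mir144 row held 1 and 0 counts in WT and 102 and 34 in KO, which was 3.81 and 3.36 CPM in KO. Mir451a held 0 and 0 counts in WT and 104 and 25 in KO, which was 3.88 and 2.47 CPM. Neither row overlapped between the genotypes, in a comparison where 31.0% of tested genes were called changed. The log2 difference KO over WT was 6.79 ± 0.80 for Mir144 (SE), a ratio of 141 with a 95% counting interval of 24.9 to 5610. For Mir451a, absent from WT, the KO level was at least 44.6-fold higher. Intervals and floors cover counting error only.

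The S1 and S2 fractions of the DIS3 line showed the same separation at higher levels. In S1, Mir144 held 2 and 1 counts in WT and 270 and 114 in KO (11.6 and 7.64 CPM), and Mir451a held 1 and 0 counts in WT and 219 and 86 in KO (9.41 and 5.76 CPM). The ratios were 124 for Mir144 (42.0 to 602) and 294 for Mir451a (52.4 to 11660). In S2 the WT samples held 0.657 and 0.311 CPM of Mir144 and the KO samples 23.1 and 44.6, while for Mir451a the WT samples held 0.289 and 0.187 CPM and the KO samples 16.8 and 27.8. The groups overlapped for neither row in either fraction, where 40.1% and 15.1% of tested genes were called changed. The log2 differences were 6.78 ± 0.46 and 7.83 ± 0.58 in S1 and 5.93 ± 0.43 and 6.39 ± 0.39 in S2 (SE) for Mir144 and Mir451a.

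In S3 and S4+S5, where WT cells themselves hold the pair, the KO was again higher. The WT samples of S3 held 4.28 and 5.19 CPM of Mir144 and the KO samples 60.9 and 47.5. For Mir451a the WT samples held 1.5 and 2.39 CPM and the KO samples 65.8 and 46.0. The log2 differences were 3.55 ± 0.15 and 4.91 ± 0.21 (SE), or ratios of 12.2 (10.5 to 14.3) and 31.8 (25.3 to 40.7). This was the smallest difference of the sorted fractions for both rows. In S4+S5, Mir144 held 23 and 16 counts in WT and 6142 and 1732 in KO, which was 1.67 and 2.00 CPM against 345 and 252. Mir451a held 31 and 25 counts in WT and 6046 and 1685 in KO, which was 2.25 and 3.13 CPM against 339 and 245. The ratios in S4+S5 were 178 (130 to 251) for Mir144 and 122 (93.7 to 161) for Mir451a, and the log2 differences 7.37 ± 0.23 and 6.81 ± 0.23 (SE). No KO sample overlapped a WT sample in S3 or S4+S5, where 32.1% and 47.1% of tested genes were called changed.

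Within the DIS3 KO each later fraction held more of both rows on the common scale. Mir144 averaged 2.63 CPM in S0, 8.68 in S1, 35.1 in S2, 64.3 in S3 and 389.8 in S4+S5, and Mir451a averaged 2.35, 6.85, 23.2, 66.4 and 382. The S4+S5 means were 148 and 163 times the S0 means of the same genotype. No neighbouring fractions overlapped for either row in the KO. In WT the highest sorted fraction was S3 for Mir144, and in KO it was S4+S5.

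Total DIS3 liver differed from the sorted fractions, since there the 2 rows did not move together. Mir451a stood at 1.6, 1.31, 1.5 and 1.54 CPM in the WT replicates 1 to 4 and at 7.10 and 10.2 in the KO samples. Mir144 stood at 6.34, 5.91, 5.34 and 12.1 CPM in the same WT replicates and at 4.83 and 6.85 in the KO samples. The KO samples lay above every WT sample for Mir451a. For Mir144 the genotypes overlapped, with 1 KO sample below every WT sample and 1 within their range, in a comparison where 50.7% of tested genes were called changed. The log2 difference was 2.52 ± 0.20 for Mir451a and -0.21 ± 0.24 for Mir144 (SE), or ratios of 5.69 (4.64 to 7.03) and 0.925 (0.814 to 1.05).

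**Figure D2:**
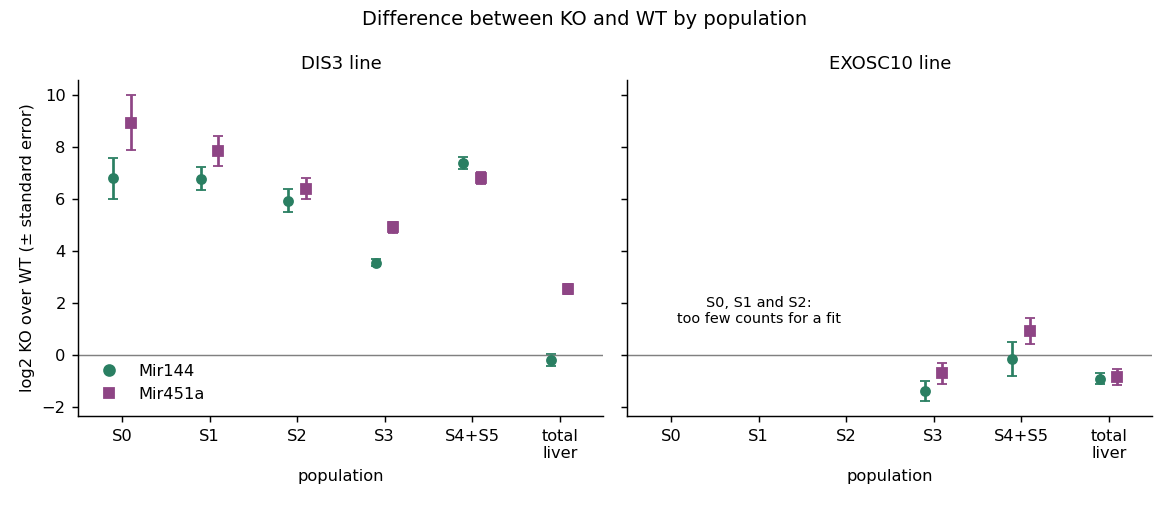
Log2 KO over WT of Mir144 and Mir451a (y axis) by population (x axis) in the DIS3 line (left) and the EXOSC10 line (right). Points are estimates and bars are standard errors; EXOSC10 S0 to S2 had too few counts for a fit. In the DIS3 line every sorted fraction lies between 3.55 and 8.93, and total liver separates Mir451a (2.52) from Mir144 (-0.21). The value of 8.93 is Mir451a in S0, where WT held 0 counts, so it is set by how the fit treats 0 counts.

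Summed erythroid markers differed between the genotypes by less than the pair in the DIS3 sorted fractions. The summed erythroid markers were 332 to 334 CPM in WT and 378 to 432 in KO in S0, where 8 of 11 rose and 1 fell, with a median log2 difference of 1.56. They were 2601 to 2652 against 2748 to 2771 in S1, 4984 to 5159 against 5219 to 5773 in S2, and 32930 to 37350 against 30640 to 32310 in S3. In S4+S5 they were lower in KO, 47200 to 47480 against 54690 to 59180 CPM, in the fraction where the KO held the most of both rows. Markers of several other blood cells were lower there in KO: macrophage markers summed to 193 to 266 CPM in WT and 11.2 to 22.7 in KO, with Cd163 and Vcam1 at 0 in KO, granulocyte markers to 223 to 297 against 32.1 to 44.5, and B cell markers to 14.7 to 15.7 against 2.64 to 2.77. Progenitor markers were lower in KO too, at 171 to 172 CPM in WT and 32.4 to 57.1 in KO. Megakaryocyte markers went the other way and summed to 43.1 to 102 CPM in WT and 153 to 177 in KO. In S0 granulocyte markers summed to 2522 to 2837 CPM in WT and 374 to 546 in KO, and in S1 all 5 granulocyte markers and all 3 tested macrophage markers fell, with median log2 differences of -5.36 and -7.47. The part of these shifts in the level of the pair was not tested. In total DIS3 liver all 11 erythroid markers fell (18570 to 21070 CPM in WT, 8381 to 10860 in KO) and hepatocyte markers rose (44460 to 50910 against 99620 to 102400). In bulk samples such as these, fewer cells of a type and less RNA per cell cannot be told apart.

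The EXOSC10 KO did not hold more of the pair in total liver or S3. In total liver Mir144 stood at 3.14, 4.30 and 3.75 CPM in the WT samples and at 1.52, 2.44 and 1.94 in the KO samples, and Mir451a at 1.41, 1.01 and 1.14 in WT and at 0.592, 0.870 and 0.402 in KO. Every KO sample lay below every WT sample for both rows, where 62.4% of tested genes were called changed, and summed erythroid markers were 13500 to 14710 CPM in WT and 5232 to 6966 in KO. The log2 differences were -0.93 ± 0.20 for Mir144 and -0.86 ± 0.29 for Mir451a (SE). The WT samples of S3 held 1.88 and 3.43 CPM of Mir144 and the KO samples 1.31 and 0.859, and for Mir451a the WT samples held 2.39 and 1.48 and the KO samples 0.947 and 1.26. Neither row overlapped, in a comparison where 34.1% of tested genes were called changed, and the log2 differences were -1.40 ± 0.39 and -0.71 ± 0.40 (SE).

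In EXOSC10 S4+S5 the rows parted. The WT samples held 2.14 and 1.58 CPM of Mir144 and the KO samples 0.909 and 2.30, so the genotypes overlapped, with a log2 difference of -0.16 ± 0.66 (SE). Mir451a was at 1.61 and 1.79 CPM in the WT samples and 2.21 and 4.08 in the KO samples, with no overlap and a log2 difference of 0.91 ± 0.51 (SE), where 15.2% of tested genes were called changed. Macrophage markers moved here as in the DIS3 line, from 194 to 199.6 CPM in WT to 24.7 to 43.1 in KO, and erythroid markers summed to 51050 to 53500 CPM in WT and 33790 to 37410 in KO. Their part in these values was not tested.

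The early EXOSC10 fractions held too few counts for a fit. In S0, Mir144 held 1 count in each genotype and Mir451a held 0 in both. In S1, Mir144 held 8 counts in each genotype, a KO over WT ratio of 1.54 (95% counting interval 0.505 to 4.72), and Mir451a held 5 in WT and 4 in KO. In S2, Mir144 held 18 counts in WT and 12 in KO, a ratio of 1.27 (0.558 to 2.78), and Mir451a 12 and 8 (1.27, 0.450 to 3.38). The WT and KO samples overlapped for Mir144 in S0 and S2 and for Mir451a in S1 and S2. For Mir144 in S1 both KO samples (0.336 and 0.203 CPM, from 3 and 5 counts) lay above both WT samples (0.0784 and 0.179, from 1 and 7). The shares of tested genes called changed were 13.5% in S0, 30.7% in S1 and 21.4% in S2. In DIS3 S1 and S2 the KO ratios, 50.7 or more, lie above the intervals given here for those fractions. The EXOSC10 counts in S0 allow no ratio, and the difference between the lines was not tested.

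Levels of the 2 rows were also compared as the share of their joint counts that fell on Mir451a. Equal counts per base would give 52.2%, since the Mir451a hairpin is the longer. In the DIS3 line Mir451a made up 19.4% of the joint counts of total WT liver (exact 95% binomial interval 16.2% to 23.0%) and 59.7% of total KO liver (57.0% to 62.4%). The WT samples ran from 11.3% to 22.0% and the KO samples were 59.5% and 59.8%, so the genotypes stood well apart. In WT S3 the share was 28.7% (23.3% to 34.6%) and in WT S4+S5 58.9% (48.4% to 68.9%). The WT S4+S5 libraries differed, with 8 counts of Mir144 and 23 of Mir451a in replicate 1 and 15 and 8 in replicate 3. In the KO it was 48.7% in S0, 44.3% in S1, 40.8% in S2, 51.3% in S3 and 49.5% in S4+S5. The intervals of S0 (42.5% to 54.9%) and S3 (49.7% to 52.9%) include the value for equal counts per base. Those of S1 (40.5% to 48.1%), S2 (38.7% to 43.0%) and S4+S5 (48.75% to 50.33%) lie below it. In WT total liver and WT S3 of the DIS3 line, reads were thus denser over the Mir144 hairpin than over the Mir451a hairpin, and in KO total liver they were denser over Mir451a.

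The EXOSC10 line did not show this shift in total liver. There the share was 23.8% in WT (19.8% to 28.2%) and 24.8% in KO (18.4% to 32.3%). In S3 it was 36.8% in WT, as 56.0% and 30.1% in the 2 samples, and 52.1% in KO (40.0% to 63.9%). In S4+S5 it was 48.1% in WT (40.1% to 56.2%) and 64.8% in KO (57.4% to 71.7%). Reads over 1 hairpin are few in all EXOSC10 groups, at most 420 for both rows together, and that limits the precision of these shares.

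**Figure D3:**
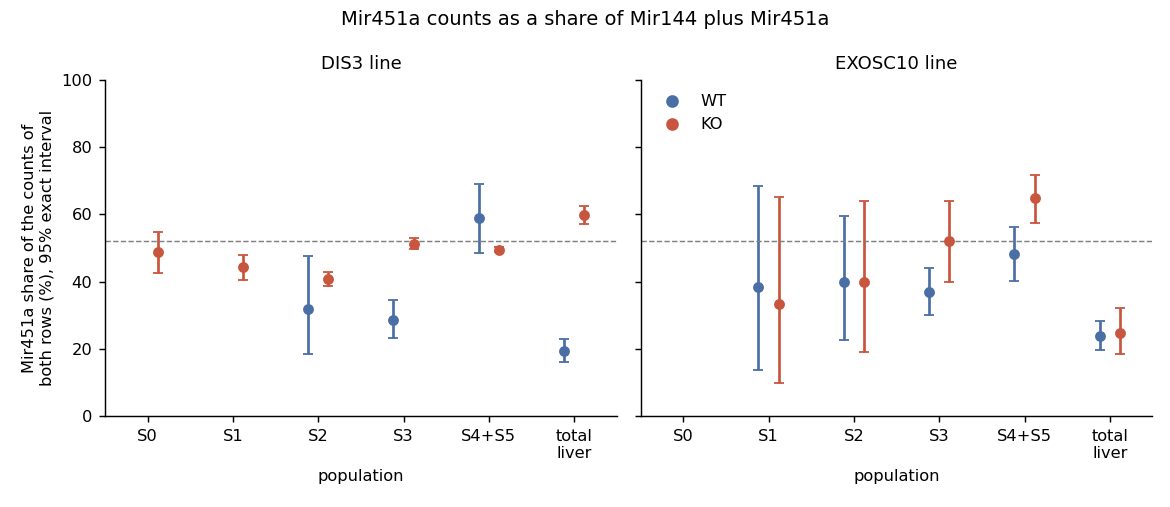
Share of the joint Mir144 and Mir451a counts that fell on Mir451a (percent), by population, genotype and line, with exact 95% binomial intervals that cover counting error only, for groups of at least 10 joint counts. The dashed line marks the 52.2% that equal counts per base would give. Total DIS3 liver moves from 19.4% in WT to 59.7% in KO, while total EXOSC10 liver is at 23.8% and 24.8%.

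The pair was chosen with its high DIS3 KO values known, so its ranks among rows annotated as microRNA genes are a description only. In DIS3 S0 and S1 the WT group held at most 3 counts of either row, so both were tested there through their KO counts. By log2 difference Mir451a and Mir144 held the first 2 ranks among the tested microRNA rows in each of the 5 sorted fractions, of 22 to 44 such rows. Mir451a ranked 4 of all 16616 tested genes in S0, but over 0 WT counts its log2 value, and so that rank, is set by how the fit treats 0 counts. In S4+S5 Mir144 ranked 34 and Mir451a 57 of 13120. Of the other microRNA rows, 5 of 40 rose and 1 fell in S0, 3 of 27 rose and 1 fell in S1, 1 of 34 rose in S2, 3 of 42 rose and 2 fell in S3, and 8 of 20 rose and 3 fell in S4+S5. Over all tested genes the shares higher and lower were 18.0% and 13.0% in S0, 20.6% and 19.4% in S1, 10.3% and 4.80% in S2, 16.3% and 15.9% in S3, and 23.4% and 23.7% in S4+S5. The median log2 difference of the other rows was 0.62 in S4+S5 and -0.12 in S3.

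Total liver gave another picture for the microRNA rows. For DIS3, 25 of 58 other rows rose and 9 fell (median 0.77), against 26.5% higher and 24.2% lower over all genes, with Mir451a first of the 60 rows and Mir144 at rank 43. Of the EXOSC10 line, 37 of 54 rose and 3 fell (median 1.29), against 31.4% and 31.0% over all genes, while Mir144 and Mir451a held ranks 53 and 52 of 56. As levels per kilobase of hairpin, Mir144 ranked 2 and Mir451a 3 of the 2202 microRNA rows in the DIS3 KO S2, S3 and S4+S5 groups. Mean levels in KO S4+S5 were 5905 and 5303 CPM per kilobase, against 39.1 and 52.5 in WT S4+S5.

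Reads from the opposite strand were few. Mir451b, whose annotated hairpin is the reverse complement of Mir451a, summed to 29 counts over the 76 libraries, 0.231% of the Mir451a and Mir451b counts together, and never passed 4 in a library. The Mir451a counts thus lie almost wholly on the strand of the primary transcript.

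The surroundings of the pair were read from the 10 annotated genes within 100 kb, of which 7 or 8 could be tested. In DIS3 S4+S5, 4 of 7 rose and 0 fell, against 23.4% higher and 23.7% lower over all tested genes. Eral1, which encodes a GTPase of mitochondrial ribosome assembly, is the nearest gene, on the minus strand, 0.1 kb past Mir451a (chr11:78073376-78080383). Its end that faces the pair is the 3′ end. The WT samples of S4+S5 held 7.47 and 11.8 CPM of Eral1 and the KO samples 43.3 and 40.2, a log2 difference of 2.15 ± 0.23 (SE, adjusted p = 2.75e-07). Traf4, an adaptor of TNF receptor signalling that lies 85.3 kb away, rose by 2.95 ± 0.18 on the same scale (adjusted p = 1.27e-10), from 13.2 to 101 CPM. Nek8, a ciliary kinase, rose by 1.92 ± 0.22 (adjusted p = 8.94e-07) and Fam222b, between Eral1 and Traf4, by 1.38 ± 0.22 (adjusted p = 3.57e-05). Flot2, a membrane scaffold gene 12.6 kb upstream on the plus strand, was at -0.11 ± 0.20 (adjusted p = 0.674).

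Eral1 rose in other DIS3 fractions too, by less than the pair. Its log2 difference was 0.04 in S0 (adjusted p = 0.867), 0.55 ± 0.09 in S1 (adjusted p = 0.000456), 1.12 ± 0.15 in S2 (adjusted p = 0.0021) and 1.05 ± 0.12 in S3 (adjusted p = 3.51e-05). In EXOSC10 S3, where the pair was lower in KO, Eral1 rose by 0.85 ± 0.11 (adjusted p = 6.66e-05), and Traf4 rose in EXOSC10 S4+S5 by 1.57 ± 0.14 (adjusted p = 0.00294). Over the 12 KO comparisons of both lines, Eral1 was called higher in 8 and lower in 0, Traf4 higher in 9 and lower in 0, and Flot2 higher in 0 and lower in 4. By count, the neighbours called were 2 higher and 2 lower of 8 in DIS3 S0, 4 and 1 in S1, 3 and 0 in S2, 4 and 2 in S3, and 2 and 4 in total liver, where 18.0%, 20.6%, 10.3%, 16.3% and 26.5% of all tested genes were higher and 13.0%, 19.4%, 4.80%, 15.9% and 24.2% lower. EXOSC10 neighbours called were 1 and 0 of 7 in S0, 3 and 0 of 8 in S1, 2 and 0 in S2, 3 and 0 in S3 and S4+S5, and 1 and 5 in total liver. The shares higher over all genes were 8.84% in S0, 15.2% in S1, 11.6% in S2, 16.8% in S3, 7.63% in S4+S5 and 31.4% in total liver of that line, and the shares lower 4.63%, 15.5%, 9.86%, 17.2%, 7.52% and 31.0%.

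**Figure D4:**
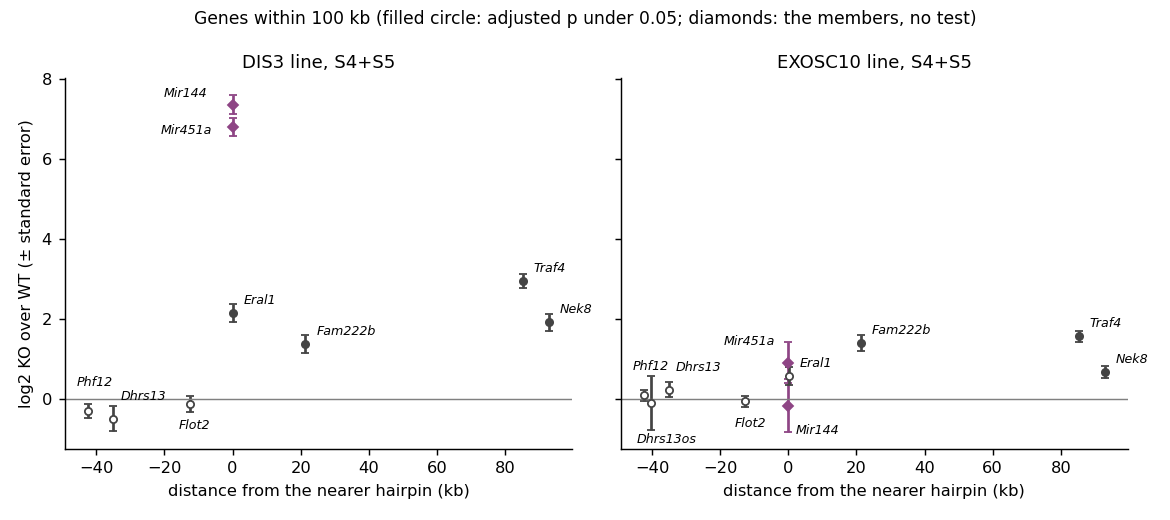
Log2 KO over WT in S4+S5 (y axis) of the genes within 100 kb of the pair, by distance from the pair in kb (x axis), in the DIS3 line (left) and the EXOSC10 line (right). Points are estimates, filled where the adjusted p is under 0.05, diamonds are the pair, which was not tested, and bars are standard errors. In the DIS3 line Mir144 and Mir451a stand at 7.37 and 6.81, above Traf4 at 2.95 and Eral1 at 2.15.

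Among 31 genes of microRNA biogenesis and decay, Ago2, the slicer that matures miR-451a, fell in all 12 KO comparisons. In total DIS3 liver the WT samples held 727, 893, 644 and 796 CPM and the KO samples 436 and 423 (log2 -0.83 ± 0.13, adjusted p = 0.000111). The DIS3 S4+S5 samples held 1380 and 1356 CPM in WT against 773 and 777 in KO (-0.82 ± 0.12, adjusted p = 1.58e-05). In DIS3 S0, where the pair was already high in KO, it fell by 0.41 ± 0.10 on the log2 scale (adjusted p = 0.00842). In EXOSC10 S4+S5 it fell by 0.85 ± 0.09 (adjusted p = 0.00474). Its call was lost without either WT sample in DIS3 S2. In EXOSC10 S0 it was lost in 3 alternative analyses, among them those without replicates 2 and 3 of WT or of KO. It was also lost without those of KO in EXOSC10 S1 and without those of WT in EXOSC10 S2. Ago2 rose with maturation in WT, by 2.50 ± 0.12 between S0 and S3 of the DIS3 line (adjusted p = 1.99e-11).

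Of the whole list, 6 of 31 rose and 7 fell in DIS3 S4+S5, shares close to the 23.4% higher and 23.7% lower over all tested genes. Drosha, which releases the hairpins, rose from 24.5 and 26.5 CPM in the WT samples to 37.8 and 42.9 in the KO samples (log2 0.66 ± 0.18, adjusted p = 0.00563). Its partner Dgcr8 did not pass the test (-0.37 ± 0.19, adjusted p = 0.116). Xpo5, which exports hairpins from the nucleus, fell by 1.64 ± 0.23 (adjusted p = 9.46e-06), and Dicer1 fell by 0.69 ± 0.17 (adjusted p = 0.00237). Safb, a nuclear scaffold protein, rose by 1.37 ± 0.16 (adjusted p = 8.17e-07). Dis3l2, the cytoplasmic relative of Dis3 that degrades uridylated precursors, rose by 0.81 ± 0.27 (adjusted p = 0.0175). Without replicates 1 and 3 of KO the calls of Dicer1 and Dis3l2 were lost, and without replicate 2 of KO that of Drosha. The Dis3l2 call was lost in 3 alternative analyses, among them also the one without replicates 1 and 3 of WT. In the remaining DIS3 comparisons the list gave 2 higher and 4 lower of 31 in S0, 5 and 9 of 29 in S1, 0 and 1 of 29 in S2, 1 and 6 of 29 in S3, and 2 and 7 of 31 in total liver. Over all genes the shares higher and lower were 18.0% and 13.0%, 20.6% and 19.4%, 10.3% and 4.80%, 16.3% and 15.9%, and 26.5% and 24.2% in that order. For EXOSC10 the list gave 1 and 6 of 31 in S0, 2 and 10 of 31 in S1, 3 and 6 of 29 in S2, 6 and 5 of 29 in S3, 3 and 1 of 31 in S4+S5, and 5 and 17 of 31 in total liver. In that order the shares higher over all genes of that line were 8.84%, 15.2%, 11.6%, 16.8%, 7.63% and 31.4%, and the shares lower 4.63%, 15.5%, 9.86%, 17.2%, 7.52% and 31.0%.

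Genes reported as targets of miR-451, in mouse or human cells, were then read with the seed match in view. The match to the miR-451a seed, AACGGTT, was searched on the transcript strand of annotated 3′UTRs and lies in 385 of 21022 genes (1.83%). Of the 10 listed genes 5 hold it (Ywhaz, Cab39, Myc, Psmb8 and Osr1), and Rab14, Mif, Gata2, Ikbkb and Tsc1 do not. The miR-144-3p match, ATACTGT, lies in 2641 of 21022 genes (12.6%), and in 4 of the 8 listed miR-144 targets, Nfe2l2, Abca1 and Meis1 among them. A 30-base window around the first match is shown for the targets whose values are given next, with the match in capitals (GRCm38 transcripts, 5′ to 3′).
Ywhaz: gtaagggcagaAACGGTTcacattccatta
Cab39: gctgttaagtgAACGGTTtttcattttacc
Nfe2l2: agaacttatttATACTGTtctcacttgtta
A match is a run of letters and was not tested as a binding site.

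None of the 8 or 9 tested miR-451 targets rose in a DIS3 sorted fraction. Of all tested genes 18.0% rose in S0, 20.6% in S1, 10.3% in S2, 16.3% in S3 and 23.4% in S4+S5, so few of so short a list could rise. In S4+S5, 5 of 9 tested targets fell, with a median log2 difference of -0.99, where 23.7% of all genes fell and the median of all genes was -0.01. Ywhaz fell from 157 and 110 CPM in the WT samples to 63.6 and 71.5 in the KO samples (-0.99 ± 0.17, adjusted p = 7.71e-05). Cab39, which encodes a partner of the kinase LKB1, stood at 54.2 and 41.9 in WT and at 40.4 and 49.8 in KO, so the genotypes overlapped. Psmb8, an immunoproteasome subunit, fell by 2.84 ± 0.38 (adjusted p = 5.84e-06), and Ikbkb, a kinase of the NF-kappaB pathway without a match, fell by 1.01 ± 0.20 (adjusted p = 0.000384). Markers of macrophages, granulocytes and B cells fell in the same comparison, and their part in these values was not tested.

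In the earlier DIS3 fractions, where the pair was also far higher in KO, some miR-451 targets fell in each but S2. Lower targets numbered 3 of 9 in S0, 4 of 9 in S1, 0 of 8 in S2 and 2 of 8 in S3, where 13.0%, 19.4%, 4.80% and 15.9% of all tested genes fell. Ywhaz did not pass the test in any of them, with log2 differences of 0.17 in S0 (adjusted p = 0.215), 0.08 in S1 (adjusted p = 0.333), -0.35 in S2 (adjusted p = 0.353) and -0.05 in S3 (adjusted p = 0.678). In S3, Cab39 fell by 0.27 ± 0.08 (adjusted p = 0.0186), a call lost without replicates 1 and 3 of WT or of KO and with DESeq2 (adjusted p at most 0.127). Ywhaz also fell in EXOSC10 S4+S5, where Mir451a was higher in KO with no overlap and Mir144 overlapped, by 0.57 ± 0.11 (adjusted p = 0.0253), a call lost without replicates 2 and 3 of WT (adjusted p = 0.0798). In that line the list gave 0 higher and 1 lower of 9 in S0 and S4+S5, 2 and 2 of 9 in S1, 0 and 2 of 8 in S2, 1 and 1 of 8 in S3, and 2 and 3 of 9 in total liver. Total DIS3 liver gave 1 higher and 2 lower of 9. For the EXOSC10 line and total liver, the shares over all tested genes are those given with the list of microRNA biogenesis genes. With WT maturation from S0 to S3, 6 of 9 fell in each line and 1 or 2 rose, where 44.6% and 41.1% of all genes fell, and Ywhaz fell by 1.51 ± 0.09 in the DIS3 line (adjusted p = 3.9e-10).

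The 8 listed miR-144 targets divided in DIS3 S4+S5, where 3 rose and 5 fell, against 23.4% higher and 23.7% lower over all tested genes. Nfe2l2, the regulator of the antioxidant response, rose from 37.6 and 24.9 CPM in the WT samples to 74.2 and 56.3 in the KO samples (log2 1.06 ± 0.20, adjusted p = 0.000234). Abca1, a cholesterol exporter, fell from 43.2 to 9.29 CPM (-2.23 ± 0.21, adjusted p = 6.38e-08), and Notch1, a receptor without a match, fell from 68.3 to 18.0 (-1.97 ± 0.22, adjusted p = 5.59e-07). The DIS3 counts were 2 higher and 2 lower of 8 in S0, 1 and 3 in S1, 0 and 0 in S2, 1 and 2 of 7 in S3, and 3 and 3 in total liver. The EXOSC10 counts, of 8, were 2 and 0 in S0, 1 and 3 in S1, 2 and 3 in S2, 1 and 2 in S3 and in S4+S5, and 4 and 3 in total liver. The shares of all tested genes higher and lower in each comparison are those given with the list of microRNA biogenesis genes.

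All genes with a seed match were counted as well, as a description. In DIS3 S4+S5, 224 tested genes held the miR-451a match, of which 17.0% rose and 30.8% fell, with a median log2 difference of -0.31. Of all 10871 tested genes with a 3′UTR, 20.8% rose and 26.8% fell, with a median of -0.11. For miR-144-3p the values over 1579 genes were 20%, 28.4% and -0.14, between those of the other 2 sets. In the earlier DIS3 fractions, where the pair was also far higher in KO, the genes with a miR-451a match did not lean one way: 19.4% rose and 15.8% fell in S0 (15.8% and 16.1% of all with a 3′UTR), 22.2% and 23.1% in S1 (19.4% and 23.1%), 10.4% and 4.52% in S2 (8.23% and 5.91%), and 13.1% and 21.2% in S3 (15.9% and 18.7%). In EXOSC10 S4+S5, 7.08% rose and 12.5% fell, against 8.26% and 8.90%. In total liver the genes with a miR-451a match leaned the other way, with 38.3% of 308 higher in the DIS3 line against 26.8% of all genes with a 3′UTR, and 46.4% of 304 in the EXOSC10 line against 32.2%. Between WT S0 and S3, 63.4% of 265 fell in the DIS3 line against 48.6% of all, and 60.1% of 263 fell in the EXOSC10 line against 44.9%. Genes with and without a match were not matched for 3′UTR length.

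FoxO3 and antioxidant genes, which act downstream of Ywhaz in red cells, rose with WT maturation in all 8 cases for DIS3 WT and in 7 for EXOSC10 WT, where 35.9% and 36.2% of all genes rose. Foxo3 itself, which encodes the transcription factor, rose in DIS3 KO S0 from 201 to 378 CPM (log2 0.91 ± 0.09, adjusted p = 2.74e-05) and did not pass the test in S3 (0.23 ± 0.11, adjusted p = 0.131) or S4+S5 (0.15 ± 0.12, adjusted p = 0.327). In total DIS3 liver it fell by 0.73 (from 683 to 412 CPM), as did all 11 erythroid markers. In S4+S5, Gpx4, which reduces lipid peroxides, rose by 1.12 ± 0.15 (adjusted p = 6.44e-06), and Gpx1, the main glutathione peroxidase of red cells, fell by 0.47 ± 0.13 (adjusted p = 0.00501), a call lost without replicates 1 and 3 of KO (adjusted p = 0.11). The list gave 2 higher and 1 lower of 8 in DIS3 S0, 3 and 3 in S1, 1 and 1 in S2, 3 and 0 in S3, 3 and 1 in S4+S5, and 0 and 4 in total liver. In the EXOSC10 line it gave 1 and 0 in S0, 4 and 0 in S1, 5 and 0 in S2, 5 and 1 in S3, 1 and 2 in S4+S5, and 0 and 6 in total liver. Of all tested genes 16.8% rose in EXOSC10 S3 and 31.0% fell in EXOSC10 total liver. The shares for every other comparison stand with the list of microRNA biogenesis genes, and these counts of 8 should be read against them.

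**Figure D5:**
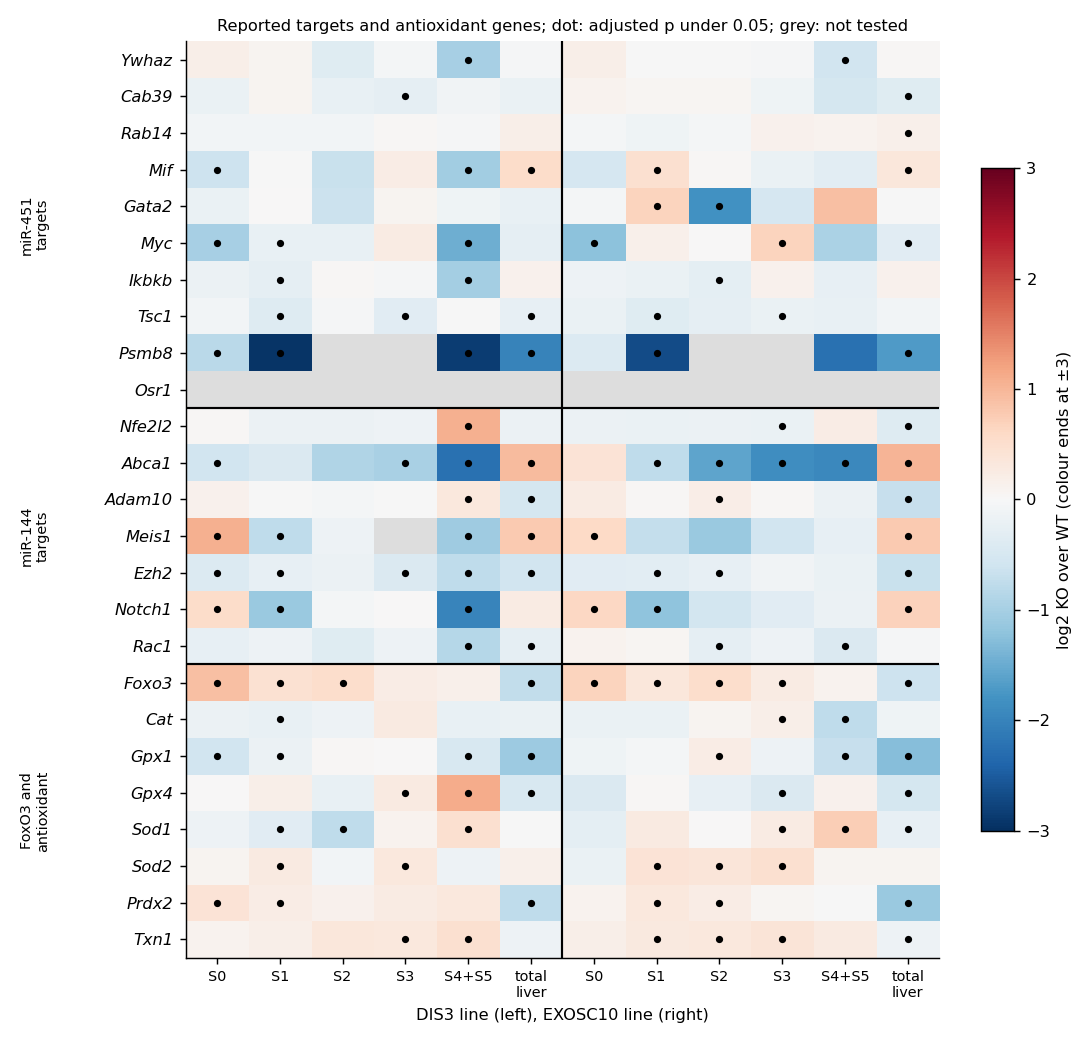
Log2 KO over WT as colour (red higher, blue lower, ends at ±3) of reported miR-451 and miR-144 targets and of the FoxO3 and antioxidant genes (rows), by line and population (columns), with a dot where the adjusted p is under 0.05 and grey where a gene was not tested. In the DIS3 S4+S5 column 5 of 9 miR-451 targets and 5 miR-144 targets are blue with a dot, and Nfe2l2 is red with a dot.

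Of 10 transcription factors reported to act on erythroid genes such as this locus, 4 rose and 1 fell in DIS3 S4+S5, against 23.4% higher and 23.7% lower over all tested genes. Gata1, which drives the primary transcript, rose from 161 and 202 CPM in the WT samples to 301 and 296 in the KO samples (log2 0.72 ± 0.14, adjusted p = 0.000304). Tal1, its partner, rose by 0.60 ± 0.13 (adjusted p = 0.00112, and 0.066 without replicates 1 and 3 of KO), and Ldb1, which bridges the complex, by 0.78 ± 0.17 (adjusted p = 0.000674). Spi1, a myeloid factor that opposes GATA1, fell by 2.29 ± 0.25 (adjusted p = 4e-07), as did the granulocyte and macrophage markers. In S3, where the pair was also higher in KO, Gata1 was at 348 and 313 CPM in the WT samples and 333 and 338 in the KO samples (0.02 ± 0.08, adjusted p = 0.883) and Tal1 at 0.11 ± 0.09 (adjusted p = 0.404). The list gave 2 higher and 2 lower of 10 in DIS3 S0, 3 and 4 in S1, 0 and 0 in S2, 1 and 3 in S3, and 0 and 9 in total liver. In the EXOSC10 line it gave 1 and 2 in S0, 5 and 2 in S1, 3 and 3 in S2, 0 and 4 in S3, 1 and 0 in S4+S5, and 0 and 9 in total liver. In total liver 9 of 10 fell in each line, where 24.2% of all tested genes fell for DIS3 and 31.0% for EXOSC10. All 11 erythroid markers fell there in both lines. For the other comparisons the shares over all tested genes are those given with the list of microRNA biogenesis genes.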

How the data were processed

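The authors deposited 1 table of raw counts per gene for each of 76 libraries (Ribo-Zero Plus stranded total RNA, per the labels' protocols). The submitters' processing notes name HISAT2 2.1.0, featureCounts 1.6.4, R 3.5.1, DESeq2 1.20.0 and GRCm38, and the annotation release and strand setting are not given in the sources used here. Of 49585 deposited identifiers 49326 matched GENCODE M21, and the other 259 held 0.0483% of counts. A hairpin row takes few reads, so how reads spanning both hairpins and flanks were assigned sets its level.

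Pairs of libraries within a group were compared by chi-square per degree of freedom over genes with at least 20 counts. In 24 of 84 pairs it was 1.077 to 1.327, and these were summed as 1 sample; in the others it was 2.798 to 20.293. Each comparison used edgeR 4.0.16 (R 4.3.3) on its own samples, with TMM scaling, a filter on low counts and the quasi-likelihood test, Benjamini-Hochberg adjusted over all tested genes with a threshold of 0.05. CPM are TMM-scaled. Counting intervals are exact at 95%, with a floor of 3 counts. Hairpins were folded with RNAfold 2.7.2, and 3′UTRs were taken from GENCODE M21. The members and all lists were chosen with earlier results of these data known. Named genes are list and neighbour genes with their values. The genes most like the summed CPM of the pair were ranked among those with a mean of at least 1 CPM. Depth was 4.66 M to 30.41 M counts per library (M, 1e6). Alternatives were DESeq2 1.42.0, no filter, each library as its own sample, Gm26917 and Gm42418 left out, a replicate block and leaving out each sample. The values of 1 listed gene are not reported here, though the counts over its list include it.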

Additional observations from a re-analysis of the deposited data

Results flagged for a closer look

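In total WT liver of the DIS3 line, Mir144 in replicate 4 (12.1 CPM) lay apart from replicates 1 to 3: its gap to the next sample was 0.852 of the range, above the critical value for 4 samples. Replicate 4 was the smallest of these libraries in counts, with 55 reads on Mir144. Chance flags about 1 in 20 groups. Mir451a in the same sample, at 1.54 CPM, lay within the range of the others.

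Differences between the lines were seen in which every sample of a genotype lay to one side in each line and the sides were opposite. For Mir451a in total liver the log2 difference KO over WT was 3.38 higher in the DIS3 line than in the EXOSC10 line. For Mir144 and Mir451a in S3 it was 4.94 and 5.62 higher. The difference between the lines was not tested in any of these cases.

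The antisense row Mir451b, which no comparison used, held 19 counts in the DIS3 KO sorted fractions, in 10 of 15 libraries, against 2 in the WT sorted fractions of that line. That was 0.173% of the Mir451a count in KO and 1.37% in WT. In the EXOSC10 line the sorted fractions held 6 counts in WT and 1 in KO.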

How the results depend on the processing

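Over the alternatives run, none of the 488 called list, neighbour and check genes changed sign in 4483 alternative values, and 352 of these lost the call, 280 of them when a sample was left out and 50 with DESeq2. The 18 log2 differences of the members changed sign in 4 of 166 alternative values, all for Mir144 in total DIS3 liver or EXOSC10 S4+S5. The log2 difference of Mir451a in DIS3 S0 was 8.93, while DESeq2 gave 8.36 and separate libraries gave 8.44. With 0 WT counts that difference has no finite estimate, and the counts give only a ratio of at least 44.6. Counts of called genes moved most. With every library as its own sample they were 4297 in DIS3 S2 (2118 as reported), and 5636 in EXOSC10 S0 (2122), 4596 in S2 (2810) and 5141 in S4+S5 (2144). Without the filter they were 3211 in EXOSC10 S0 and 3493 in S4+S5, and with DESeq2 2886 in EXOSC10 S3 (4352).

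Leaving out 1 sample gave 3254 to 7324 called genes in DIS3 S0, 872 to 5898 in S2 and 2742 to 4049 in S3, and 793 to 4471 in EXOSC10 S0, 2673 to 3700 in S1, 1647 to 3775 in S2 and 1277 to 7872 in S4+S5. The cause was not tested. The log2 difference of Mir144 then ran from 6.01 to 9.02 in DIS3 S0, 6.01 to 7.08 in S1, 5.38 to 6.72 in S2, -0.47 to 0.03 in total liver, -1.72 to -0.81 in EXOSC10 S3 and -1.03 to 0.28 in S4+S5. That of Mir451a ran from 8.29 to 9.39 in DIS3 S0, again over 0 WT counts, and from 7.41 to 9.87 in DIS3 S1. It ran from 6.00 to 6.83 in DIS3 S2, 2.23 to 2.75 in total DIS3 liver and 0.36 to 1.23 in EXOSC10 S4+S5. A lone sample was assumed to vary like the other group.

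Same-numbered samples did not deviate together (correlations -0.111 to 0.067), but with 2 samples per group this cannot exclude a pairing. The numbers did recur: replicates 1 and 3 were near-identical in every DIS3 sorted group, and replicates 2 and 3 in every EXOSC10 sorted group. Whether they mark a shared source is not given in the labels. With the replicate block 3392 genes were called in DIS3 S2, and a crossed pairing, chosen after seeing the data, gave 3974 in EXOSC10 S0. No paired analysis was possible in total liver because its groups shared fewer than 2 sample numbers after summing. Low counts limit the EXOSC10 values and all WT values of S0 to S2.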
